A study of Mus musculus with 15 samples.

Results

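The genes described here are 36 genes that sense DNA damage or repair it, out of 18194 mouse genes with a probe set on the array. They were listed by name, from known roles in homologous recombination, the Fanconi anaemia pathway, mismatch repair, base excision repair, end joining, damage signalling, nucleotide excision repair and lesion bypass, and all 36 were found on the array by symbol or gene ID. No measured value entered the rule, but earlier results of these data were known when the list was drawn up. The samples were scrapings of the colon from male mice of the inbred strain C57BL/6, 11 weeks of age. The heme group (9 mice) ate for 14 days a high-fat, low-calcium diet with 0.5 umol of heme per g, and the control group (6 mice) ate the same diet without heme. Both groups took 40% of their energy as fat, so the comparison is of heme on top of a Westernized diet and no group on a standard diet was analysed. Heme, an iron porphyrin, is abundant in red meat. Each mouse was hybridised to its own array, and control mouse 5 was not analysed here.

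Cells repair DNA along several routes that share few proteins. Double-strand breaks are repaired from the sister chromatid by homologous recombination after DNA has been copied, or are rejoined directly by end joining through most of the cell cycle. Base excision removes oxidised, deaminated and alkylated bases, nucleotide excision removes bulky adducts, mismatch repair corrects replication errors, and lesion bypass polymerases copy across damage that was not removed. The kinases Atm and Atr report damage to the checkpoint kinases Chek2 and Chek1. In the colon, crypts hold dividing cells that carry the replication-linked routes, while the surface holds differentiated cells.

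Values are log2 expression per probe set, and a probe set under a floor of 4.32 (a linear signal of 20) was not taken as measured. Of the 36 members, 27 lay over the floor on at least 6 of the 15 arrays and were among the 9257 genes tested. The other 9 (Brca2, Blm, Fancd2, Fanci, Pms2, Ogg1, Mutyh, Chek1 and Mgmt) lay under the floor on nearly every array. All 8 colon epithelium markers were over the floor on every array, and the mean of these markers ran from 12.54 to 12.74 in heme mice, against 12.42 to 12.61 in control mice. All 13 proliferation markers rose with heme, and their mean ran from 8.80 to 9.23 in heme mice, against 7.56 to 8.09 in control mice. All 5 tested smooth muscle markers fell (mean 4.51 to 6.36 in heme mice, against 5.86 to 9.45 in control mice), as did 2 of 3 tested leukocyte markers (5.83 to 6.86 in heme mice, against 7.73 to 8.79 in control mice), all 4 enteroendocrine markers (6.88 to 7.61 in heme mice, against 8.62 to 9.61 in control mice) and all 5 goblet markers (12.76 to 13.02 in heme mice, against 13.08 to 13.29 in control mice). The leukocyte markers Cd3e, Cd8a and Cd68 were under the floor on all arrays, and none of 4 endothelial markers reached the filter. Control mouse 2 was rich in smooth muscle RNA at 9.45, and control mouse 4 was poor in the distal colon markers Hoxb13 and Hoxd13, with a mean of 2.76 against 7.73 to 10.01 in the other controls. Heme mouse 6 had the highest goblet (13.02) and enteroendocrine (7.61) means of its group, and control mice 2 and 4 and heme mouse 6 had been set apart in earlier results of these data. Except for the smooth muscle, proliferation and distal colon markers, which were used as covariates, the part of these markers in the members' changes was not tested. In a scraping, fewer cells of a type and less RNA per cell cannot be told apart.

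Of the 27 tested members 16 were higher and 4 lower in heme mice, and 7 were not called (limma, Benjamini-Hochberg adjusted p under 0.05 over all tested genes). Over all tested genes 53.6% were called, 27.2% higher and 26.4% lower, so the members' share of 59.3% higher stands above that background and their share of 14.8% lower stands below it. The median difference of the tested members was 0.29 on the log2 scale, against -0.01 for all tested genes. Counts per route in later paragraphs rest on few genes and are to be read beside the shares over all tested genes. All 9 heme mice lay above all 6 controls for 7 members, or below them for 1, where 11.2% and 8.93% of all tested genes did so. The filter bears on the counts of higher members, since Rad54l, Exo1 and Fanca passed it through heme mice alone and had to be higher to be tested. It bears on the 7 without overlap too. Rad54l and Fanca are among them, with all 9 heme mice over the floor and all 6 controls under it. Rad18, Clspn and Neil3 passed it mostly through heme mice. They were over the floor in 8, 9 and 9 of 9 heme mice, against 1, 2 and 3 of 6 controls. With Rad54l, Exo1 and Fanca at their lower bound the median was again 0.29. Lowering 3 of 27 values can move a median little, so this does not settle the filter's part in the counts. Without control mice 2 and 4 and heme mouse 6, 11 members were higher and 5 lower, and with the smooth muscle marker mean as a covariate 12 were higher and 3 lower. Neil3, Xrcc6, Atr, Polh and Rad18 lost their call in both of these fits, and Trp53bp1 in the second. With the covariate the differences of Atr (0.37) and Polh (0.58) were larger than without it, those of Neil3 (0.17), Xrcc6 (0.18) and Rad18 (0.34) were smaller, and the standard errors of all 6 were larger. When the mean of the proliferation markers was a covariate, no member was called and 10 genes were higher and 3 lower over the whole array. The marker mean did not overlap between the diets, so the proliferation markers and the diet cannot be told apart in that fit.

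**Figure D1:**
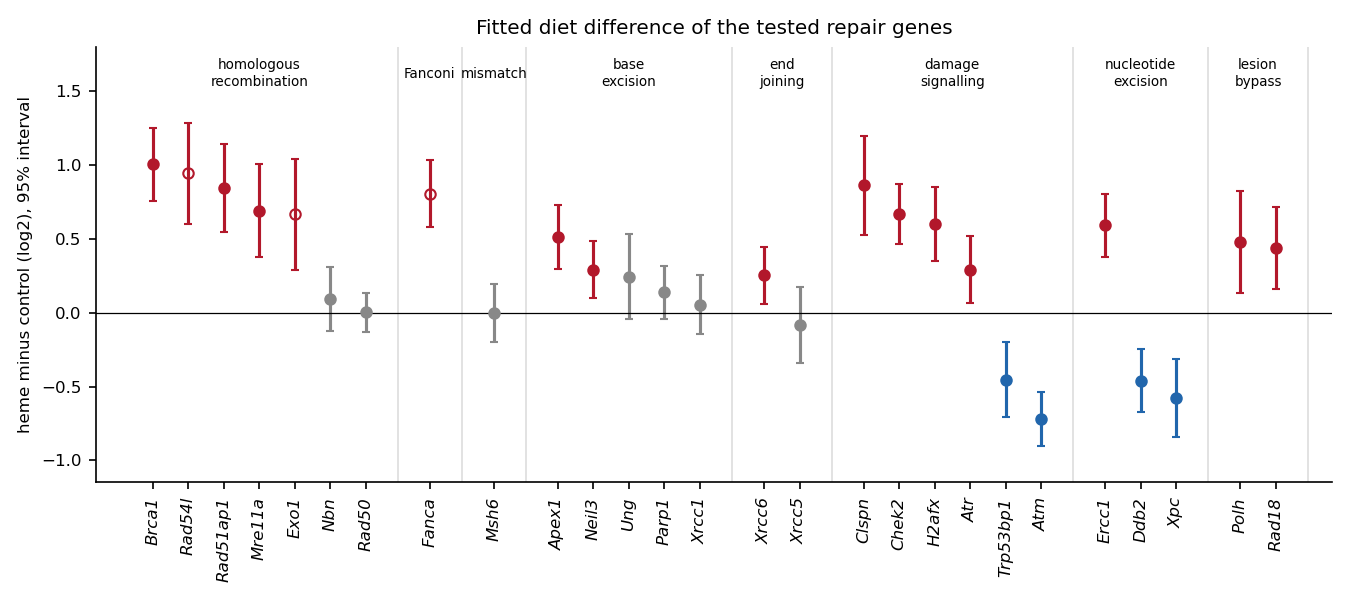
Fitted difference between heme and control mice (log2, y axis) for the 27 tested members, grouped by role along the x axis. Points are limma estimates with 95% intervals, red for genes called higher, blue for lower and grey for not called, and open circles mark Rad54l, Exo1 and Fanca, which lay under the floor in all control mice. Brca1 stands highest at 1.00 and Atm lowest at -0.72.

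Of 7 tested homologous recombination members 5 rose, 2 of them (Rad54l and Exo1) tested through heme mice alone, and none fell, with a median difference of 0.69, or 0.58 with Rad54l and Exo1 at their bound. Brca1, which brings the recombinase to broken ends and whose human counterpart is a breast cancer gene, ran from 5.17 over a median of 5.69 to 6.07 in heme mice, against 4.30, 4.71 and 4.84 in control mice. Every heme mouse thus lay above every control. Brca1 rose 2.01-fold (log2 difference 1.00 ± 0.12, SE, limma, adjusted p = 5.12e-06), the largest difference among the 27 tested members. Of its other 3 probe sets, all under the filter, 2 differed by 0.61 and 0.63 and the dimmest by 0.09.

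Rad51ap1, which helps the recombinase pair DNA strands, ran from 5.56 over 5.94 to 6.36 in heme mice, against 4.74, 5.17 and 5.49 in control mice, again with no overlap. It rose by 0.84 ± 0.14 in log2 units (SE, limma, adjusted p = 1.42e-04), and its second probe set over the floor gave 1.01. Rad54l, a motor protein that drives strand exchange, was over the floor in all heme mice (4.47 to 5.57) and in no control (3.79 to 4.25), a rise of at least 0.58 in log2 units. Exo1, the exonuclease that trims broken ends and also serves mismatch repair, ran from 4.13 over 4.45 to 5.19 in heme mice, against 3.15, 3.99 and 4.31 in control mice. The groups overlapped, with 6 of 9 heme mice and no control over the floor, and Exo1 was at least 1.15-fold higher.

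Of the 3 subunits of the complex that first binds a broken end 1 was called and 2 were not. The nuclease subunit Mre11a ran from 6.13 over 6.40 to 7.20 in heme mice, against 5.32, 5.88 and 6.07 in control mice, without overlap, and rose by 0.69 ± 0.15 (adjusted p = 0.00115, limma). The structural subunit Rad50 had a median of 7.34 in heme mice and 7.34 in control mice, with a difference of 0.00 and a 95% interval of -0.13 to 0.13. The signalling subunit Nbn had medians of 7.46 in heme mice and 7.43 in control mice, a difference of 0.10 with an interval of -0.12 to 0.31. The change of Mre11a exceeded that of Rad50 by 0.69 and that of Nbn by 0.59. These and the other gene pairs set side by side were chosen for their values, so their differences are descriptions with no test. With the probe sets of each gene averaged the Mre11a change exceeded that of Rad50 by 0.28 and that of Nbn by 0.26, where a second Mre11a probe set under the floor, at a difference of 0.02, takes part in the mean.

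Of the 3 members from the Fanconi anaemia pathway, which unhooks DNA crosslinks at stalled forks, only Fanca was over the floor on enough arrays. Fanca, a subunit of the ubiquitin ligase core of the pathway, ran from 4.54 to 5.30 in heme mice and from 3.63 to 4.11, below the floor, in control mice, at least 1.39-fold higher. Fancd2 and Fanci, the pair that the core complex ubiquitinates, lay under the floor on all 15 arrays. Their differences of 0.59 and 0.45 passed with no signal filter (adjusted p = 5.02e-05 and 0.00103, limma), as did those of the helicase gene Blm (0.42, 0.0163) and of Chek1 (0.42, 0.00217), but below the floor the size of a change is not settled. The other 5 untested members, Brca2, Pms2, Ogg1, Mutyh and Mgmt, did not pass without the filter either, with adjusted p from 0.141 to 0.804.

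Damage signalling genes went both ways. Of 6 tested members 4 rose and 2 fell, beside 53.6% of all tested genes called in either direction. With the wider list added, 8 of 22 tested signalling genes rose, 4 fell and 10 were not called. Clspn (claspin), the adaptor through which Atr activates Chek1 at stalled forks, ran from 4.78 over 5.11 to 5.49 in heme mice, against 3.82, 4.13 and 4.76 in control mice. The groups did not overlap, although only 2 of 6 controls lay over the floor, and Clspn rose by 0.86 ± 0.16 (SE, adjusted p = 3.20e-04, limma). Chek2, the checkpoint kinase that Atm activates, ran from 6.52 over 6.81 to 7.27 in heme mice, against 6.00, 6.11 and 6.31 in control mice. It rose 1.59-fold with no overlap (adjusted p = 3.93e-05, limma). H2afx, named H2ax in the array annotation, encodes the histone variant that is phosphorylated around breaks. It ran from 9.58 over 9.77 to 9.93 in heme mice, against 8.63, 9.17 and 9.61 in control mice, and rose by 0.60 ± 0.12, with 8 of 9 heme mice above all controls.

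Atm, the kinase that answers double-strand breaks, moved the other way from its target Chek2. Atm ran from 7.01 over 7.30 to 7.56 in heme mice, against 7.84, 8.02 and 8.37 in control mice, so that all heme mice lay below all controls. It fell by 0.72 ± 0.09 in log2 units (SE, limma, adjusted p = 7.58e-06), and its second probe set fell by 0.52. Atr, the kinase of stalled forks, ran from 7.27 over 7.56 to 7.82 in heme mice, against 7.09, 7.17 and 7.77 in control mice, with overlap, and was higher by 0.29 ± 0.11 (adjusted p = 0.0320, limma). The Atr call was lost in 7 of 15 fits that each left out 1 mouse (heme mouse 7 or 8, or any control but 3), where the adjusted p reached 0.0721. The difference between the changes of Atr and Atm was 1.01. Trp53bp1, which binds the chromatin around breaks and favours end joining over recombination, ran from 7.13 over 7.80 to 7.99 in heme mice, against 7.93, 8.18 and 8.40 in control mice. It fell by 0.45 ± 0.12 (adjusted p = 0.00467, limma), and the other 3 probe sets over the filter fell by 0.36, 0.65 and 0.72. With the smooth muscle markers as a covariate the Trp53bp1 difference was -0.39 and no longer called (adjusted p = 0.107, limma).

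**Figure D2:**
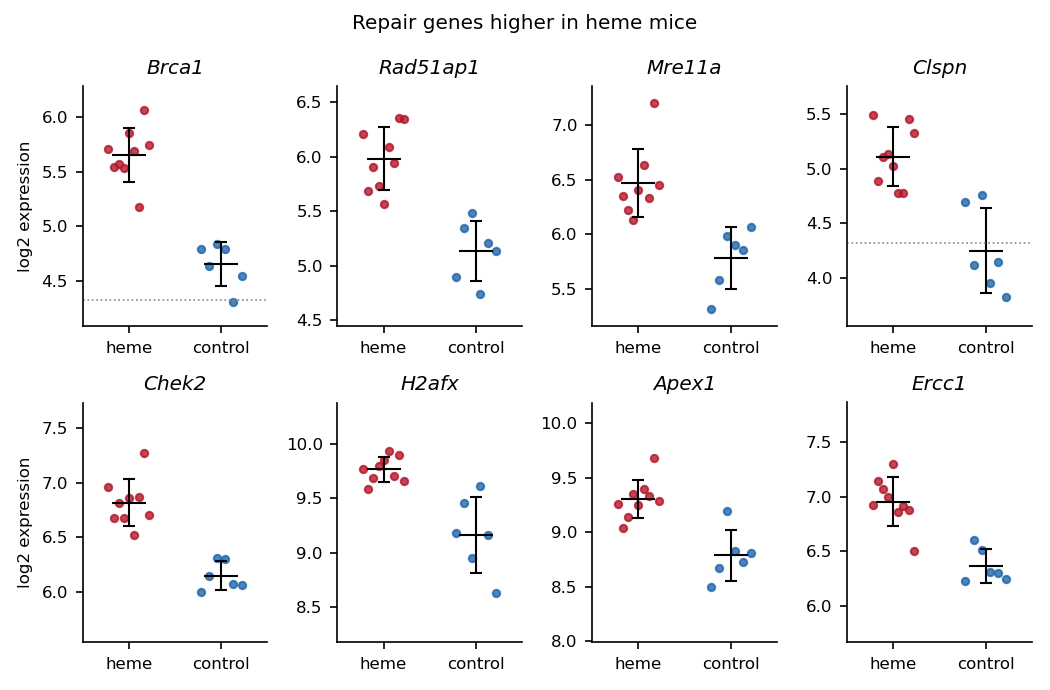
Log2 expression (y axis) of 8 members that rose, with 1 point per mouse for heme (red, n = 9) and control (blue, n = 6), and the mean with SD in black. Each panel spans the same log2 range, the dotted line is the floor of 4.32, and Brca1, Rad51ap1, Mre11a, Clspn and Chek2 show no overlap between diets.

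Promoters of 4 of the members that changed without overlap are given here as examples of the sequence at their starts. Of these, 3 are from genes that rose and 1 is that of Atm, which fell. RefSeq promoters, from 250 bases before to 50 after the start in GRCm38.p6, were held for 29 of the 36 members (33 promoters). They were searched on both strands for CCAAT and for the E2F words TTTGGCGC, TTTCCCGC and TTTCGCGC, none of which contains CCAAT, though matches of both kinds may share end letters. E2F factors drive genes of S phase, and CCAAT boxes are common in promoters of cell cycle genes. An E2F word stood in 5 of the 33 member promoters (15.2%), against 1.84% of all 32851 promoters, and those 5 were Clspn, Chek2 and Xrcc6, which rose, Msh6, which was not called, and Brca2, which was not tested. CCAAT stood in 19 of 33 (57.6%), against 37.4% of all promoters. The set of all promoters covers 27025 genes and was not matched to the members in expression or base composition. Members that rose had 16 promoters from 14 genes, where Rad54l and Rad18 each have more than 1, with overlapping windows. Among these promoters, 3 of 16 held an E2F word and 10 of 16 CCAAT. For members not called the counts were 1 of 5 and 3 of 5, and for members that fell 0 of 2 and 1 of 2. For members not tested they were 1 of 10 and 5 of 10. Whether either word goes with a rise was not tested. Both kinds of word are in capitals below, read along the gene's strand, where ATTGG, GCGGGAAA and GCGCGAAA are matches on the other strand.
Brca1, chr11:101551906-101552205, minus strand: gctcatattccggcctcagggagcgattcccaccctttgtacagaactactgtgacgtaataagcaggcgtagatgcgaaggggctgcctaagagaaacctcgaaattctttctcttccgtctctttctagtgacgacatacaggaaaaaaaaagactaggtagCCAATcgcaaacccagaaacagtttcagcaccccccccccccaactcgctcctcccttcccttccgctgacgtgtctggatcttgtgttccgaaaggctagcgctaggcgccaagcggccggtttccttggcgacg
Clspn, chr4:126556730-126557029, plus strand: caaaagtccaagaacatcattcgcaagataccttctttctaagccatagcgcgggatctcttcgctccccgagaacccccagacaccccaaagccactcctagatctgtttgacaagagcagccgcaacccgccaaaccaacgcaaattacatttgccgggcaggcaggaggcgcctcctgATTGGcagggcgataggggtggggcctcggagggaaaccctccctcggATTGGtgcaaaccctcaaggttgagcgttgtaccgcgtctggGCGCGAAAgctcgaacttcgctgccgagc
Chek2, chr5:110839733-110840032, plus strand: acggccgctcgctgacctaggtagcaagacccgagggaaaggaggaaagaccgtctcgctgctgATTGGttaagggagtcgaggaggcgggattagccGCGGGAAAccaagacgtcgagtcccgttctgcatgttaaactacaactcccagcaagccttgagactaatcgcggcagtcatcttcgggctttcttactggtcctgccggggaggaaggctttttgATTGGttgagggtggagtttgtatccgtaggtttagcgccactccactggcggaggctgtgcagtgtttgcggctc
Atm, chr9:53536622-53536921, minus strand: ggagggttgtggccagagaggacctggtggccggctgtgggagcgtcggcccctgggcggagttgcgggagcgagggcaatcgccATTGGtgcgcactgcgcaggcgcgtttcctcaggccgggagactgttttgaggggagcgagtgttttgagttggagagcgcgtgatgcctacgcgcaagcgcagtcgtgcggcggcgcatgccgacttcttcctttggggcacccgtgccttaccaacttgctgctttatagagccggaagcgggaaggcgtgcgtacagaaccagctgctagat
Clspn and Chek2 hold both kinds of word, while Brca1 and Atm, which moved in opposite directions, each hold 1 CCAAT match and no E2F word. Rad51ap1, Rad54l, Mre11a and Fanca also rose without overlap, and their promoters, not printed here, hold CCAAT and no E2F word. The counts are descriptions of letters in these windows.

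Of 3 tested nucleotide excision members 1 rose and 2 fell. Xpc, which recognises distorted DNA, ran from 5.00 over 5.51 to 5.90 in heme mice, against 5.84, 6.05 and 6.16 in control mice. It fell by 0.58 ± 0.12 (SE, adjusted p = 0.00118, limma), with 8 of 9 heme mice below all controls. Ddb2, which finds ultraviolet photoproducts and hands them to Xpc, ran from 6.72 over 7.04 to 7.40 in heme mice, against 7.37, 7.52 and 7.60 in control mice. It fell by 0.46 ± 0.10 (adjusted p = 0.00121, limma), also with 8 of 9 below all controls, and its second probe set fell by 0.53. Ercc1, a subunit of the nuclease that cuts on the 5′ side of the lesion and that also acts on crosslinks, ran from 6.51 over 6.93 to 7.31 in heme mice, against 6.23, 6.31 and 6.61 in control mice. Ercc1 rose 1.51-fold (adjusted p = 1.78e-04, limma), and its second probe set over the floor rose by 0.49 on the log2 scale.

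**Figure D3:**
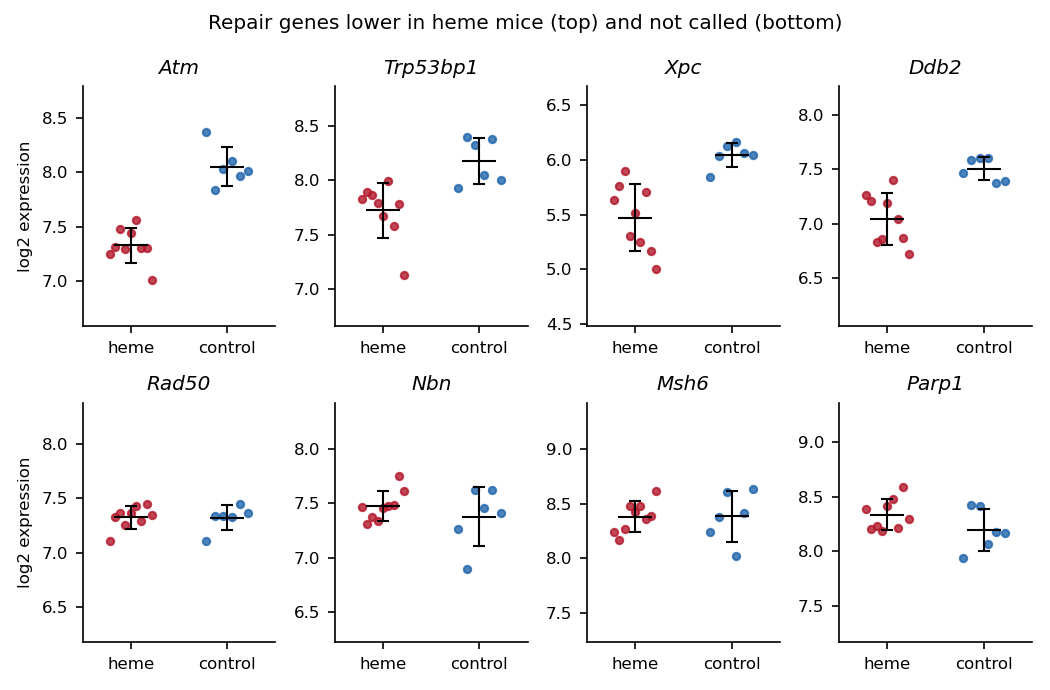
Log2 expression (y axis) of the 4 members that fell (top row) and of 4 members that were not called (bottom row), with 1 point per mouse for heme (red, n = 9) and control (blue, n = 6), and the mean with SD in black. Each panel spans the same log2 range. Atm shows no overlap, and in Trp53bp1, Xpc and Ddb2 1 heme mouse reaches the control range. Rad50, Nbn, Msh6 and Parp1 overlap between diets, where for Parp1 only control mice 2 and 3 reach the heme range.

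Of 5 tested base excision members 2 rose and none fell, with a median difference of 0.24. Apex1, the endonuclease that cuts at sites without a base, ran from 9.04 over 9.28 to 9.68 in heme mice, against 8.50, 8.77 and 9.20 in control mice. It rose by 0.52 ± 0.10 (SE, adjusted p = 6.06e-04, limma). Its other probe sets rose by 0.73 and 0.83, and both carry the suffix x_at, which marks probes that can bind other transcripts. Neil3, a glycosylase of replicating cells, was higher by 0.29 ± 0.09 (adjusted p = 0.0139, limma) with 3 of 6 controls under the floor, and was not called without control mice 2 and 4 and heme mouse 6 (0.24, limma adjusted p = 0.0507) or when smooth muscle was a covariate (0.17, limma adjusted p = 0.351). The other 3 base excision genes were not called, the scaffold gene Xrcc1 at 0.06 (95% interval -0.15 to 0.26), the break sensor Parp1 at 0.14 (-0.04 to 0.32) and the uracil glycosylase Ung at 0.24 (-0.04 to 0.53). Ung was called without control mouse 3 (0.35, adjusted p = 0.0227, limma), which at 7.39 was the highest control, and Parp1 with the smooth muscle covariate (0.34, adjusted p = 0.0285, limma). Ogg1 and Mutyh, the glycosylase pair for oxidised guanine, were under the floor in all mice but heme mouse 9 for Ogg1, so their response could not be measured.

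Mismatch repair and end joining had few measured members. Msh6, which recognises single mismatches, had medians of 8.39 in heme mice and 8.40 in control mice, a difference of 0.00 with an interval of -0.20 to 0.20. Xrcc6 and Xrcc5 encode the Ku proteins that cap broken ends. Xrcc6 ran from 7.23 over 7.34 to 7.59 in heme mice, against 6.92, 7.02 and 7.49 in control mice. The groups overlapped, and Xrcc6 was higher by 0.25 ± 0.09 (adjusted p = 0.0269, limma), a call lost in 4 of 15 fits that left out 1 mouse (control mouse 1, 2, 4 or 6, adjusted p up to 0.0660). With its probe sets averaged the Xrcc6 difference was 0.13 and not called (limma adjusted p = 0.114). Xrcc5 had medians of 5.59 in heme mice and 5.81 in control mice and differed by -0.08, with an interval of -0.34 to 0.18. It was lower without control mice 2 and 4 and heme mouse 6 (-0.28, limma adjusted p = 0.0144). The change of Xrcc6 exceeded that of Xrcc5 by 0.33, and by 0.15 with the smooth muscle covariate.

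Both tested members of lesion bypass rose. Of 10 other tested genes of that route and of direct reversal 2 rose and 5 fell, beside 27.2% higher and 26.4% lower over all tested genes. Rad18, the ligase that marks the sliding clamp at a stalled fork, ran from 4.06 over 4.62 to 4.86 in heme mice, against 3.87, 4.07 and 4.55 in control mice. Over the floor were 8 of 9 heme mice and 1 of 6 controls, and Rad18 was higher by 0.44 ± 0.13 (SE, adjusted p = 0.0103, limma). Its other 3 probe sets were under the floor throughout and differed by 0.54, 0.72 and 0.72. Polh, the polymerase that copies accurately past ultraviolet dimers, ran from 5.23 over 5.73 to 6.27 in heme mice, against 5.06, 5.15 and 5.68 in control mice, and was higher by 0.48 ± 0.16 (adjusted p = 0.0219, limma). The Polh value rests on 1 probe set whose suffix, x_at, marks probes that can bind other transcripts, while its other 3 probe sets lay under the floor and differed by 0.01, 0.10 and 0.17. Polh was not called with the replicate block (0.29, adjusted p = 0.122, limma), with array weights (0.38, adjusted p = 0.0698, limma) or without control mice 2 and 4 and heme mouse 6 (0.41, limma adjusted p = 0.10), and Rad18 was not called without those 3 mice (0.38, adjusted p = 0.0517, limma).

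Among the genes that fell were 4 other bypass polymerases. Rev1, the scaffold polymerase that the others bind, ran from 5.39 over 6.00 to 6.21 in heme mice, against 6.06, 6.63 and 7.04 in control mice, and fell by 0.67 ± 0.15 (SE, adjusted p = 0.00201, limma). Polk ran from 5.10 over 5.75 to 6.03 in heme mice, against 5.95, 6.28 and 6.64 in control mice, and fell by 0.61 ± 0.13 (adjusted p = 0.00119, limma). The polymerase gene Poli and Rev3l, the catalytic subunit of polymerase zeta, fell by 0.59 ± 0.13 and 0.40 ± 0.08 (adjusted p = 0.00122 and 5.52e-04, limma). Poli lay over the floor in 4 of 9 heme mice, and with the smooth muscle covariate Polk (-0.43, adjusted p = 0.0979) and Rev3l (-0.24, adjusted p = 0.105) were not called by limma. The 2 ubiquitin conjugating enzymes that work with Rad18 were called in opposite directions. Ube2a ran from 11.67 over 11.77 to 11.90 in heme mice, against 11.20, 11.26 and 11.35 in control mice, without overlap, and rose 1.43-fold (adjusted p = 5.92e-07, limma). Its near relative Ube2b was lower by 0.15 ± 0.06 (adjusted p = 0.0456, limma), a call lost in 10 of 15 fits that left out 1 mouse. The 2 changes differed by 0.67. The 2 proteins are closely alike, and how far each probe set is free of the other's transcript was not tested. Poli, Rev3l, Ube2a, Ube2b and Alkbh3 were named after their values were seen.

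**Figure D4:**
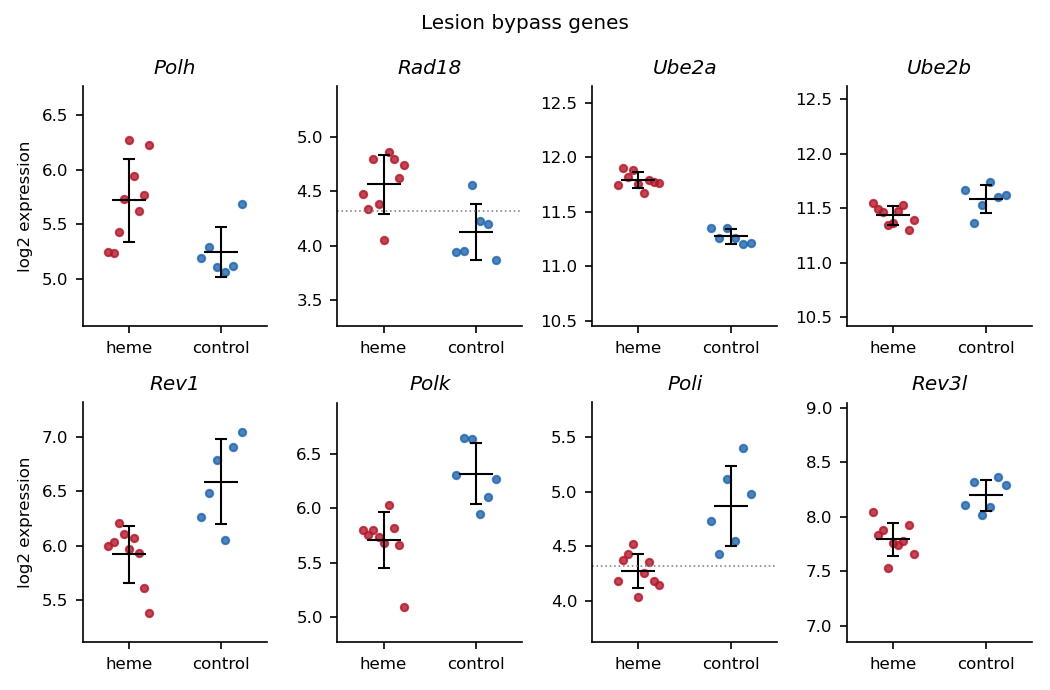
Log2 expression (y axis) of 8 lesion bypass genes, with 1 point per mouse for heme (red, n = 9) and control (blue, n = 6), and the mean with SD in black. Each panel spans the same log2 range and the dotted line is the floor of 4.32. Polh, Rad18 and Ube2a sit higher in heme mice, and Rev1, Polk, Poli and Rev3l lower.

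Beyond the members, 87 other genes of the same routes were on the array and 61 were tested. Of these 19 rose (31.1%) and 13 fell (21.3%), with a median difference of 0.01, beside the 27.2% and 26.4% of all tested genes. In homologous recombination 1 of 5 rose, 1 fell and 3 were not called, with a median difference of 0.04. The nuclease-helicase gene Dna2 rose by 0.69 ± 0.14 (SE). Rad52, which anneals single strands, fell by 0.67 ± 0.14 and was over the floor in 5 of 9 heme mice. In the Fanconi pathway 4 of 7 rose and 1 fell, led by the ubiquitin conjugating enzyme Ube2t (0.66 ± 0.12) and the ligase Fancl (0.42 ± 0.10), where Fancl was not called once smooth muscle was a covariate (0.21, limma adjusted p = 0.277).

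Aptx, which mends failed ligations in single-strand break repair, rose by 0.56 ± 0.09 without overlap, and the glycosylase Neil1 fell by 0.31 ± 0.10. Without control mice 2 and 4 and heme mouse 6 neither Neil1 (-0.23, limma adjusted p = 0.0927) nor the fork protector Tipin (0.53, limma adjusted p = 0.0690) was called. Among signalling genes 4 of 16 rose and 2 fell. Tipin rose by 0.66 ± 0.19, and Uimc1, which brings the Brca1 A complex to ubiquitin at breaks, fell by 0.45 ± 0.06 with all heme mice below all controls (adjusted p = 1.57e-05, limma). In nucleotide excision repair 5 of 10 rose and 1 fell. That one was Uvssa, of the branch that serves transcribed genes, at 6.59, 6.99 and 7.23 (lowest, median and highest) in heme mice, against 7.42, 7.63 and 7.82 in control mice. It fell by 0.66 ± 0.10 (adjusted p = 4.92e-05, limma), while the Xpc partner Rad23b rose by 0.41 ± 0.11, a change of 0.10 (adjusted p = 0.421, limma) with its probe sets averaged. Alkbh3, which reverses alkylated bases directly, was higher by 0.37 ± 0.12, and by 0.03 (adjusted p = 0.836, limma) with its probe sets averaged. Prkdc, the kinase that Ku recruits, and the mismatch gene Msh3 were lower by 0.37 ± 0.12 and 0.27 ± 0.10. Prkdc was not called once smooth muscle was a covariate (-0.14, limma adjusted p = 0.527), and Msh3 was not called in 8 of 15 fits that left out 1 mouse nor with quantile normalization (-0.16, adjusted p = 0.178, limma). When smooth muscle was a covariate, Neil1, Tipin, Rad23b and Alkbh3 were not called either, with limma adjusted p from 0.0608 to 0.158. Their differences in that fit were -0.39, 0.73, 0.32 and 0.35, larger than without the covariate for Neil1 and Tipin, and all 4 standard errors were larger.

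The size of the rise differed between heme mice. Among the 16 members that rose, heme mouse 8 had the highest value of its group in 8 and heme mouse 2 the lowest in 5. Heme mouse 8 also had the highest mean of the proliferation markers, at 9.23. Heme mice 3, 6 and 2 had the lowest proliferation means of their group, at 8.80, 8.82 and 8.82. They were lowest in 0, 3 and 5 of the 16. In the control group mouse 3 was highest in 10 of the 16. Its proliferation mean was 7.91, with control mice 4 at 8.09 and 2 at 8.03. How the members go with these markers from mouse to mouse was not tested. Among the 4 members that fell, heme mouse 9 was lowest in all 4 and heme mouse 6 highest in 3. Without heme mouse 8 or control mouse 3, 14 and 17 members were called higher, and 4 lower in both fits, where Exo1 did not pass the filter without heme mouse 8. Nor did it without heme mouse 1, 3, 4, 5 or 9.

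**Figure D5:**
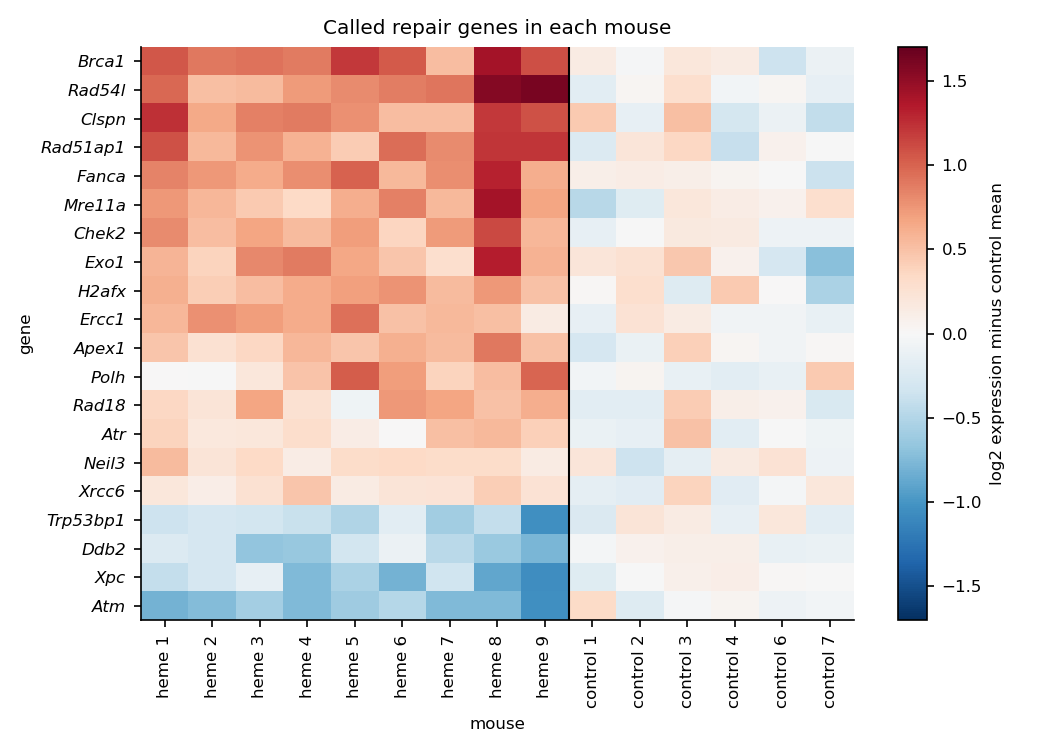
Each called member (rows) in each mouse (columns, heme left of the line and control right of it), coloured by its log2 expression minus the control mean, from blue (lower) to red (higher). Heme mouse 8 holds the highest value of its group in 8 of the 16 members that rose, and heme mouse 9 the lowest in all 4 that fell.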

How the data were processed

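The deposited log2 expression values per probe set were made with GCRMA 2.22.0, per the submitters' processing notes. GCRMA corrects background from probe sequence and summarises probes, and any further step is not given in the sources used here. Of 45101 probe sets 34958 had 1 symbol in the array annotation and entered, and the brightest probe set on average over the 15 arrays stood for each gene. Detection calls were not used here, so genes needed a signal over 20 on 6 or more arrays. Differences were fitted with lmFit and eBayes of limma 3.58.1 (R 4.3.3) and p-values adjusted over the 9257 tested genes at 0.05. The procedure was tested on simulated data. Where no mouse of a group was over the floor the fold is against the floor, given as "at least". Intervals are 95% from the fit. Array medians ran from 3.11 to 3.24, and the number of arrays limits the precision. Members, lists and alternatives were chosen with earlier results of these data known. All tested members may be named. Of the wider list the rule named the 2 called genes with the largest change per route, and other genes were named after their values were seen. Of 99 genes on the wider list 87 were analysed. Alternatives were signal filters, averaged probe sets, median centring, quantile normalization, a robust variance trend, weights per array, a block for replicate numbers, the number in the sample description, marker means as covariates, and leaving out mice.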

Additional observations from a re-analysis of the deposited data

Results flagged for a closer look

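In 8 of 92 groups of mice, for the tested members and the named genes of the wider list, 1 mouse stood far from the rest of its group by Dixon's criterion, where chance gives about 1 in 20. Heme mouse 8 was high for Mre11a at 7.20, with the next heme mouse at 6.64. Heme mouse 9 was low for Trp53bp1 at 7.13 (next 7.58) and for Polk at 5.10 (next 5.66), and high for Rad23b at 11.12 (next 10.57). Control mouse 3 was high for Atr at 7.77, where the next control was at 7.27. Control mouse 7 was low for Fanca at 3.63 (next 3.98) and for Alkbh3 at 7.74 (next 8.33), and high for Polh at 5.68 (next 5.29). Without heme mouse 8 the Mre11a difference was 0.60, without heme mouse 9 that of Trp53bp1 was -0.38 and that of Polk -0.53, and without control mouse 3 that of Atr was 0.39, and these 4 were called in each fit.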

How the results depend on the processing

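Of the 27 tested members all kept their side of the threshold under median centring, quantile normalization, trend with robust variance, no signal filter and the description number as a covariate. Leaving out 1 mouse at a time gave 14 to 17 members higher and 4 lower in every fit, 17 to 20 genes of the wider list higher and 11 to 15 lower, and 2332 to 2557 genes higher and 2152 to 2517 lower over the array. A signal floor of 100 tested 14 members, with 6 higher, and left 7 lower on the wider list, since fewer genes enter. Averaged probe sets tested 19 members, with 7 higher. Of the 9 that dropped out, 8 did not pass the filter, since dim probe sets enter the mean, and Xrcc6 lost its call (0.13). With the smooth muscle covariate 11 of the wider list were higher, 12 members were higher and 3 lower, and the cause was not tested. Without control mice 2 and 4 and heme mouse 6, 11 members were higher and 5 lower, and 16 and 14 of the wider list. The replicate numbers did not pair the mice (correlations of -0.195 to 0.196 over 6 shared numbers). With the replicate block 13 members were higher and 4 lower, and Xrcc6, Atr and Polh lost their call. With the proliferation covariate 10 genes were higher and 3 lower over the array, and of the members and of the wider list 0 higher and 0 lower. In that fit, where no value was called, the sign turned for Rad54l (-0.45), Exo1 (-0.75), Mre11a (-0.12), Fanca (-0.17), Apex1 (-0.0839), Atr (-0.17), Chek2 (-0.19), H2afx (-0.44), Ube2t (-0.37), Msh3 (0.22), Tipin (-0.0934), Rad23b (-0.0563), Rev1 (0.62), Alkbh3 (-0.52), Poli (0.10) and Ube2b (0.0841), and for Mre11a against Rad50 (-0.0104) and Xrcc6 against Xrcc5 (-0.00731). Sign changes of values called in neither fit were not counted. Probe sets near the floor limit what Rad54l, Exo1, Fanca, Rad18, Clspn, Neil3, Rad52 and Poli can show.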
